A study of Homo sapiens with 4 samples.

Results

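Vimentin (VIM), nestin (NES), synemin (SYNM), the 3 lamin genes (LMNA, LMNB1, LMNB2), 3 neuronal filament genes (INA, NEFL, NEFM) and the antisense gene VIM-AS1 were compared between a Wnt reporter-positive and a Wnt reporter-negative breast cancer line. These 10 genes were chosen by symbol, and all 10 were found among the 43714 Ensembl genes with counts. MDA-MB-231 is a mesenchymal, triple-negative breast cancer line. Both derivative lines carry the stably transfected 7TGP vector, in which 7 TCF sites control EGFP, and both were selected with puromycin. Both went through 8 rounds of sorting and expansion. The reporter-positive line (MDA-MB-2317TGP-POS) was then more than 80% EGFP-positive. The reporter-negative line (MDA-MB-2317TGP-NEG, the labelled control) was then more than 95% EGFP-negative. Each line is thus a sorted population, and how many founder cells it came from was not tested. The 2 are called the positive and the negative line below. Each line gave 2 RNA-seq libraries, with total counts of 55894092 to 63034563 per library. No label states separate cultures for the libraries of a line, and the p-values below then measure only the spread between libraries, which may be technical.

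Intermediate filament proteins share a coiled-coil rod and assemble into rope-like polymers. Vimentin forms the main cytoplasmic network of mesenchymal cells and is widely read as a marker of the epithelial-mesenchymal transition. Nestin and synemin do not build filaments alone and enter those that vimentin or desmin form. A-type lamins (lamin A and C, both from LMNA) and B-type lamins (LMNB1, LMNB2) line the inside of the nuclear envelope, and NEFL, NEFM and INA encode filaments of neurons. The series title places VIM at the end of an axis with LINC00645, a long non-coding RNA, and miR-452-5p.

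The mature miRNA and the transcript pieces that match its seed are shown first, because the title links this miRNA to VIM. Its seed, bases 2 to 8, is in capitals. The miRNA is encoded at chrX:151959678-151959699 on the minus strand (RefSeq, GRCh38.p14), and 2 other human miRNAs have the same seed.
hsa-miR-452-5p: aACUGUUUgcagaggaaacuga
hsa-miR-4676-3p: cACUGUUUcaccacuggcucuu
hsa-miR-892c-3p: cACUGUUUccuuucugagugga
A perfect match to the seed reads AAACAGT in the transcript. In GENCODE release 29 the principal VIM transcript (VIM-201, 1868 bases, with a 3' UTR of 322 bases) held 0 copies of AAACAGT and 0 copies of the shorter match AACAGT. Of the 10 annotated VIM transcripts 1 held the 7-letter match, VIM-203, which is annotated as a target of nonsense-mediated decay and has it at position 1662 of 2666. The SYNM 3' UTR of 2531 bases held 2 copies, at chr15:99134183-99134204 and chr15:99135406-99135427 on the plus strand. Capitals mark the 7-letter match in each piece.
VIM-203: tagtttatgatttaAAACAGTa
SYNM first: tgttttgtccagggAAACAGTt
SYNM second: ttgttactgagacaAAACAGTa
The 3' UTRs of the other protein-coding members held 0 copies. LMNB1 had 1 copy upstream of its 3' UTR. Of 19146 genes with a 3' UTR, 14.2% held at least 1 copy, and of the 2468 genes whose 3' UTR was 0.7 to 1.3 times as long as that of VIM, 3.04% did. No such share was computed for 3' UTRs as long as that of SYNM, and longer ones have more room for a match. All matches given here are letter matches in reference transcripts and no binding was measured.

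RefSeq promoter windows are shown for VIM and NES, the protein-coding members with falls of more than 2-fold. Each runs 250 bases up to the base before the annotated start (GRCh38.p14), 5' to 3' on the gene's strand, with GGGCGG or its reverse complement CCGCCC, the core of the GC box, in capitals. The VIM window is chr10:17227991-17228240 on the plus strand. It precedes an upstream start, and VIM-201 begins 1037 bases downstream of that start. The NES window is chr1:156677408-156677657 on the minus strand.
VIM: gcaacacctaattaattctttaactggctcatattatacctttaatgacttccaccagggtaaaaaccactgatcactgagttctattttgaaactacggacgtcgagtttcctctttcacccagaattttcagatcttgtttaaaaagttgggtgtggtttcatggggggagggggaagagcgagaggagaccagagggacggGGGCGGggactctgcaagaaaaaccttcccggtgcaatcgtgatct
NES: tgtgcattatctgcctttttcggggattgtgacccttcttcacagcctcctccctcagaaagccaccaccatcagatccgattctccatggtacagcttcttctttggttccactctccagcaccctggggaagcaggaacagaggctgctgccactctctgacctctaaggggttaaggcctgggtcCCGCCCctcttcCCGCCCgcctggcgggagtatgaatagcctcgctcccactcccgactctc
The GC box core occurs once in the VIM window and at 2 places in the NES window, and 42.6% of 35116 promoter windows of this length hold it on either strand. Neither window holds CTTTGA, a core found in TCF/LEF sites, on either strand, while 11.2% of all windows do. The TCF/LEF variant CTTTGT is likewise in neither of these windows and in 13.7% of all. The same holds for the TATA box letters TATAAA (10.7% of all windows) and for CACCTG, the E-box read by SNAI and ZEB repressors (17.5% of all windows). For VIM these absences cover the upstream window only, since the bases just before the start of VIM-201 were not searched. Among the windows of the 8 members looked up here, the TCF/LEF core was found only in that of LMNB2.

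Vimentin, nestin, synemin and lamin A/C transcripts were all lower in the positive line, whereas neither B-type lamin passed the test. In edgeR's quasi-likelihood test with Benjamini-Hochberg adjustment over 30952 genes, in which a gene rose or fell if its adjusted p was under 0.05, 7 of the 10 members had enough counts to be tested. Of these 7, 5 fell (VIM, VIM-AS1, NES, SYNM and LMNA), 0 rose, and LMNB1 and LMNB2 did not pass. Across all tested genes 22.4% were called, 10.9% lower and 11.6% higher in the positive line. The tested members had a median log2 fold change of -0.53, beside -0.00 over all tested genes. VIM and VIM-AS1 share reads, so these 5 calls are not 5 separate measurements. In bulk RNA, fewer cells of a kind and less RNA per cell cannot be told apart. Levels below are CPM, read counts scaled to library size with TMM factors, and fold changes are positive over negative.

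**Figure D1:**
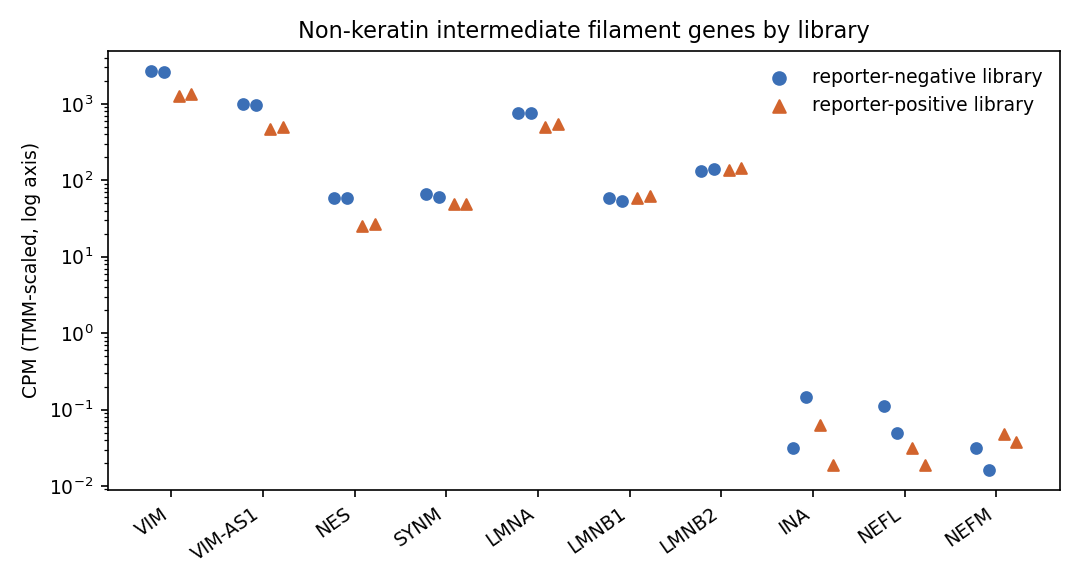
Level of each of the 10 genes in each library, in TMM-scaled CPM on a log axis; circles are the 2 negative and triangles the 2 positive libraries. VIM, VIM-AS1, NES, SYNM and LMNA are lower in both positive libraries, LMNB1 and LMNB2 overlap between the lines, and INA, NEFL and NEFM lie below 1 CPM.

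VIM (ENSG00000026025, chr10:17228259-17237593, plus strand) had 2714 and 2625 CPM in the negative libraries and 1257 and 1343 CPM in the positive libraries. Both positive libraries were low, and the lines did not overlap. The log2 fold change was -1.04 (SE 0.10, edgeR adjusted p = 1.91e-07), and 2.01% of tested genes had a change as low or lower. Per kilobase of merged exons VIM ranked 14 and 15 of 19125 protein-coding genes in the negative libraries and 43 and 41 in the positive libraries. Vimentin therefore remained among the most abundant transcripts of both lines.

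VIM-AS1 (ENSG00000229124, chr10:17214239-17229985, minus strand) is annotated as an antisense transcript that starts within the VIM gene and runs away from it. Its levels were 996 and 976 CPM in the negative and 468 and 493 CPM in the positive libraries, again without overlap. Its log2 fold change, -1.04 (SE 0.09, edgeR adjusted p = 1.89e-08), was the same as that of VIM to 2 decimals. The authors' counts do not separate the strands: in all 2264 of 2264 genes lying inside a gene of the opposite strand and holding at least 400 counts, the outer gene had at least as many counts in all 4 libraries. The 1727 bases that VIM and VIM-AS1 share hold the whole first exon of VIM-201 (chr10:17229278-17229985, 708 bases). VIM-AS1 counts equalled 36.7% and 37.2% of VIM counts in the negative and 37.3% and 36.7% in the positive libraries. That exon makes up 37.9% of the VIM-201 sequence, whereas the shared bases hold 25.0% of the merged exon length of VIM. How much of the VIM-AS1 count comes from the antisense strand was not tested.

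A further antisense gene, ENSG00000234961, lies wholly inside VIM over 1509 bases that contain 3 of the 9 exons of VIM-201 (exons 3, 4 and 5). Its counts equalled 35.8% to 37.5% of VIM counts, and its log2 fold change was -1.01 (SE 0.09, edgeR adjusted p = 4.48e-08). Its 3 exons make up 20.6% of VIM-201, and the 5 exons outside both antisense genes make up 41.5%. When the counts of both antisense genes were subtracted, 46476 and 43522 VIM counts were left in the negative and 20925 and 18150 in the positive libraries. The remainder was 27.0% of VIM counts in both negative libraries and 26.5% and 25.8% in the positive ones. It fell by 1.08 on the log2 scale (SE 0.08, edgeR adjusted p = 4.74e-09), close to the change of the whole VIM count. VIM-AS1 spans 15747 bases, and reads from the part outside VIM were subtracted too. Their number was not measured, so the remainder is a minimum for VIM reads outside both antisense genes.

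**Figure D2:**
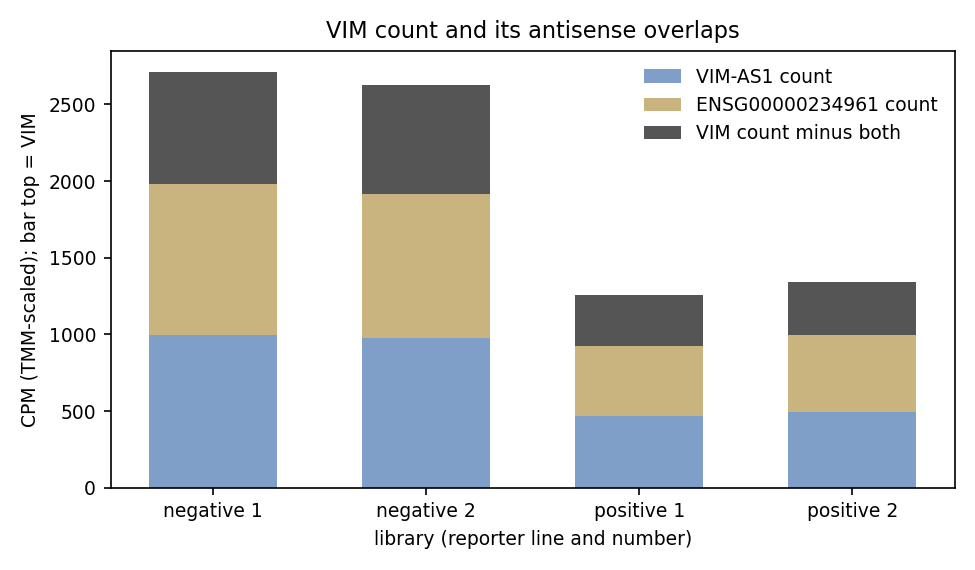
VIM count in each library in TMM-scaled CPM, as stacked bars from 0, split into a part equal to the VIM-AS1 count, a part equal to the ENSG00000234961 count and the rest. All 3 parts are lower in both positive libraries, and the parts keep nearly the same shares.

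NES (ENSG00000132688, chr1:156668763-156677397, minus strand), the large filament protein of neural and other progenitor cells, had 58.0 and 58.8 CPM in the negative libraries and 25.5 and 26.9 CPM in the positive ones. The lines stood far apart relative to the spread within each. NES was 2.23-fold lower in the positive line (log2 fold change -1.16, SE 0.07, edgeR adjusted p = 2.55e-10). No listed gene overlaps NES.

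SYNM (chr15:99098217-99135593, plus strand), which links filaments to membrane and cytoskeletal anchors, had 65.7 and 59.6 CPM in the negative and 48.6 and 49.1 CPM in the positive libraries. Both positive libraries were lower, and the lines did not overlap. The log2 fold change was -0.36 (SE 0.07, edgeR adjusted p = 0.00102). Without negative library 1 the change was -0.28 and did not pass (edgeR adjusted p = 0.107). SYNM shares reads with 2 antisense genes. SYNM-AS2, which lies inside it, fell (log2 fold change -0.42, edgeR adjusted p = 7.91e-04), while SYNM-AS1, which overlaps it over 7608 bases and itself shares reads with IGF1R, had a log2 fold change of -0.15 and did not pass (edgeR adjusted p = 0.164). With the counts of SYNM-AS2 subtracted, an alternative chosen after the data were seen, SYNM still fell (log2 fold change -0.32, SE 0.08, edgeR adjusted p = 0.00397).

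**Figure D3:**
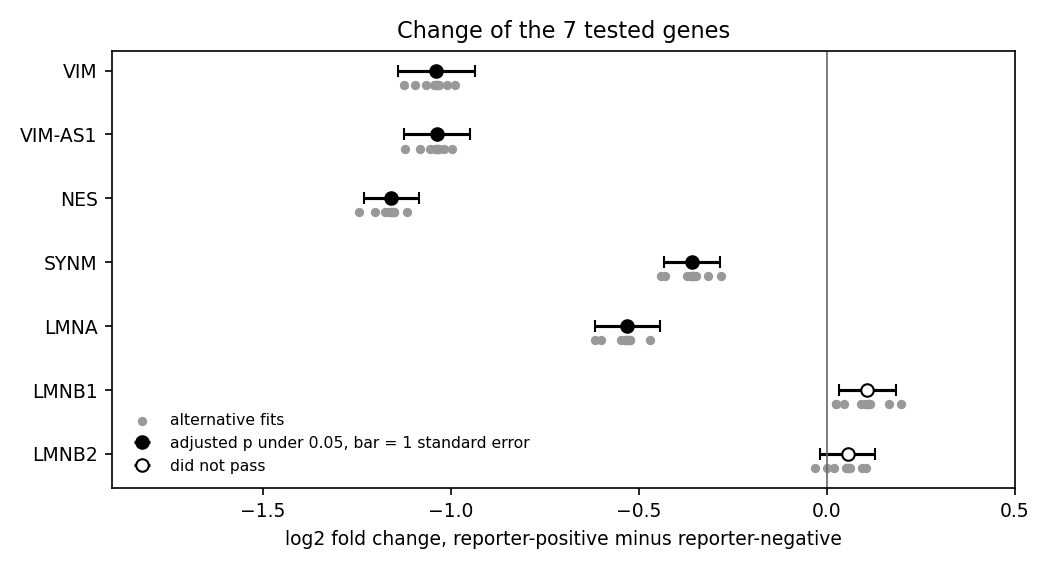
Log2 fold change of the 7 tested genes, positive minus negative, with 1 standard error as bars; filled points passed at an adjusted p under 0.05, open points did not, and grey dots are the alternative fits. VIM, VIM-AS1 and NES sit at or below -0.99 in all of their fits, LMNA between -0.62 and -0.47, and LMNB1 and LMNB2 near 0.

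Among the lamins, LMNA (chr1:156082573-156140089, plus strand) had 754 and 764 CPM in the negative and 503 and 547 CPM in the positive libraries. The lines did not overlap, and the positive mean was 69.2% of the negative mean. LMNA fell by 0.53 on the log2 scale (SE 0.09, edgeR adjusted p = 9.59e-05), a 1.44-fold difference. A fall larger than this was seen in 9.28% of tested genes.

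LMNB1 (chr5:126776623-126837020, plus strand) had 59.4 and 53.0 CPM in the negative and 58.3 and 62.9 CPM in the positive libraries, and the lines overlapped. Its log2 fold change was 0.11 (SE 0.08, edgeR adjusted p = 0.369). LMNB2 (chr19:2427638-2456996, minus strand) had 132 and 139 CPM against 136 and 145 CPM, also with overlap. Its log2 fold change was 0.06 (SE 0.07, edgeR adjusted p = 0.678), and its sign turned in 2 alternative fits (lowest -0.03) without passing in either. LMNB2 overlaps TIMM13 by 257 bases. A change in either B-type lamin was thus not detected, which does not show that they were equal.

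The balance of A-type to B-type lamin transcripts was lower in both positive libraries. Per kilobase of merged exons, the ratio of LMNA to the sum of LMNB1 and LMNB2 was 2.66 and 2.72 in the negative libraries and 1.75 and 1.78 in the positive libraries. LMNA accounted for 72.7% and 73.1% of lamin transcripts on that scale in the former and 63.7% and 64.0% in the latter. The lines did not overlap for either measure. The exact two-sided permutation test gave p = 0.333, the smallest that 2 libraries against 2 allow. The ratio of LMNB2 to LMNB1 was 1.48 and 1.76 against 1.56 and 1.55, with overlap. The ratio of VIM to LMNA was 4.88 and 4.65 in the negative and 3.38 and 3.32 in the positive libraries, again without overlap (exact two-sided permutation p = 0.333).

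**Figure D4:**
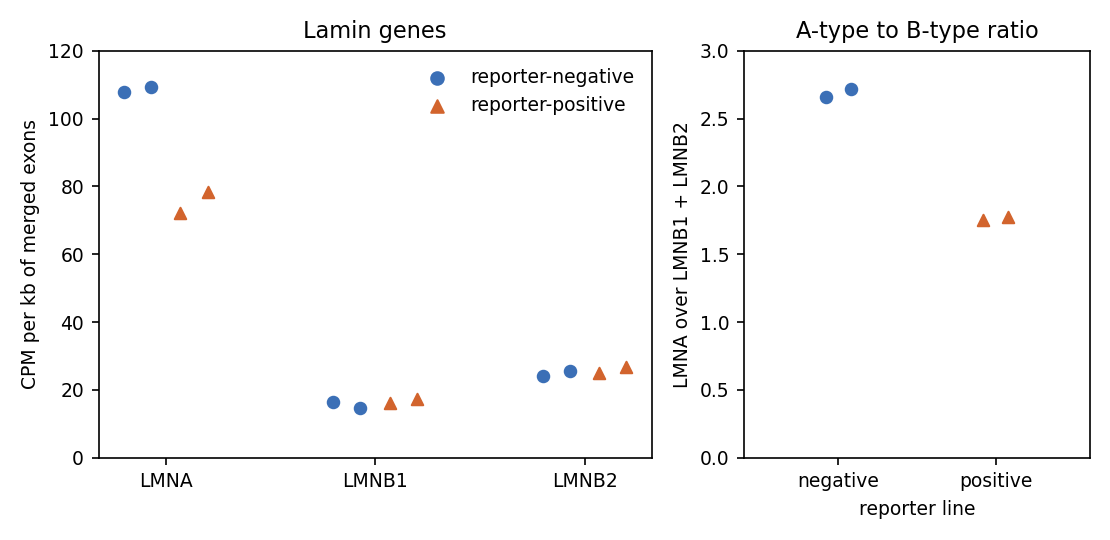
Left, lamin levels in CPM per kilobase of merged exons in each library; right, the ratio of LMNA to LMNB1 plus LMNB2 on that scale. LMNA and the ratio are lower in both positive libraries, with the ratio at 1.75 and 1.78 against 2.66 and 2.72, while both B-type lamins overlap between the lines.

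The neuronal filament genes were at the limit of detection in both lines. INA had 2 and 9 counts in the negative and 4 and 1 in the positive libraries. NEFL had 7 and 3 against 2 and 1, and NEFM had 2 and 1 against 3 and 2. None of the 3 passed the count filter. With no filter their edgeR adjusted p-values were 0.611, 0.433 and 0.790, so a difference was not detectable at this depth.

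Set in order by CPM per kilobase of merged exons, the members ranged from VIM at the top to the neuronal genes at under 0.05. In the negative line VIM stood at 518 ± 12.2 (SD, n = 2), LMNA at 109 ± 1.04, LMNB2 at 24.9 ± 0.997, LMNB1 at 15.5 ± 1.24, NES at 10.5 ± 0.100 and SYNM at 8.01 ± 0.553. In the positive line the levels were 252 ± 11.8 for VIM, 75.2 ± 4.45 for LMNA, 25.9 ± 1.20 for LMNB2, 16.7 ± 0.889 for LMNB1, 6.25 ± 0.0414 for SYNM and 4.71 ± 0.174 for NES. NES and SYNM, the lowest of the tested genes, stood in the opposite order in the 2 lines on this scale, apart by more than their spread in both. Since the counts cover introns too, the order depends on the length used. Per kilobase of gene span NES stayed above SYNM in both lines, at 6.76 against 1.68 in the negative and 3.03 against 1.31 in the positive line, so the exchange was not seen. On that scale LMNB1, which has long introns, was the lowest of the tested genes at 0.931 in the negative line.

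Of 11 other intermediate filament genes (GFAP, DES, PRPH, NEFH, the lens genes BFSP1 and BFSP2, SYNC, IFFO1, IFFO2, LMNTD1 and LMNTD2), 9 were tested. LMNTD2 fell and 8 did not pass, with a median log2 fold change of 0.04. Over all tested genes 22.4% were called. This list and those that follow were chosen with earlier results of these data known. LMNTD2 was at 12.4 ± 0.360 (SD, n = 2) against 9.77 ± 1.88 CPM (log2 fold change -0.34, edgeR adjusted p = 0.0429), shares reads with RASSF7, and lost its call in 7 of 11 alternatives. In simulated data more of the calls were false than the threshold of 0.05 allows. Fewer genes were changed in that simulation than were called here, so the false share here is not known. Calls near the threshold, such as those of LMNTD2 and of AURKB and CDK1 below, are the least certain. IFFO2, the most abundant of those that did not pass, was at 55.7 and 57.2 CPM.

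Plakins, the giant linker proteins that tie intermediate filaments to junctions, actin and microtubules, fell in 6 of 7 cases, with 0 rising. Their median log2 fold change was -0.48, and over all tested genes 10.9% were lower. PPL (periplakin) went from 12.1 ± 1.26 to 5.61 ± 0.326 CPM (log2 fold change -1.11, SE 0.12, edgeR adjusted p = 4.11e-07). EPPK1 (epiplakin) went from 6.22 ± 0.644 to 2.79 ± 0.0112 CPM (-1.15, SE 0.15, edgeR adjusted p = 6.14e-06). These 2 held in every alternative fit. EVPL (envoplakin) went from 41.1 to 29.5 CPM, also held in every alternative fit, and shares reads with TEN1-CDK3. PLEC (plectin), which binds vimentin directly and was the most abundant plakin, had means of 2292 ± 268 and 1567 ± 175 CPM (log2 fold change -0.55, SE 0.11, edgeR adjusted p = 0.00116). Its call was lost without negative library 1 (edgeR adjusted p = 0.183). Without that library 3 of the 7 plakins fell, and without negative library 2, 4 did.

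Proteins that join filaments and lamina across the nuclear envelope form the LINC complex of SUN and nesprin proteins. Of its 6 genes 2 fell, 0 rose and 4 did not pass (median log2 fold change -0.22), beside 10.9% lower over all tested genes. SYNE3, which encodes the nesprin that binds plectin at the outer nuclear membrane, went from 31.1 ± 1.20 to 22.1 ± 0.135 CPM (log2 fold change -0.49, SE 0.08, edgeR adjusted p = 6.17e-05). SUN1, which binds lamin A, went from 184 ± 6.40 to 150 ± 5.65 CPM (-0.29, edgeR adjusted p = 0.00584), and its call was lost without either negative library. In those fits 1 of the 6 genes fell, against 3 without positive library 1, 3 with total count scaling, 3 with the filter at 1 CPM and 4 without positive library 2.

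Of 11 inner nuclear membrane and lamina partners, 1 rose, 1 fell and 9 did not pass (median 0.06), beside 22.4% called over all tested genes. LBR, the lamin B receptor, which tethers chromatin to the envelope beside the A-type lamins, was the gene that rose. It had 59.5 ± 0.0396 CPM in the negative and 85.3 ± 2.58 CPM in the positive line (log2 fold change 0.52, SE 0.07, edgeR adjusted p = 1.20e-05), and it rose in every alternative fit. LBR and LMNA thus moved in opposite directions, by nearly the same amount on the log2 scale. NRM (nurim) fell (log2 fold change -0.32, edgeR adjusted p = 0.0117), a call lost without either negative library. Without positive library 1, 5 of these genes rose and 1 fell.

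None of the 5 genes that farnesylate, cut and methylate prelamins passed in edgeR's test (0 called; unadjusted p under 0.05 in 2). ICMT was at 71.7 and 67.6 CPM and ZMPSTE24, the protease that matures prelamin A, at 50.6 and 57.3 CPM. Over all tested genes 22.4% were called. Of 12 kinases and turnover factors that act on vimentin or lamins, 9 did not pass. PAK1 fell (log2 fold change -0.29), and AURKB and CDK1 rose (0.25 and 0.24). Each of these 3 calls was lost without at least 1 library: PAK1 without negative 1, AURKB without negative 2, and CDK1 without either negative library or without positive library 2. AURKB and CDK1 also lost their calls with total count scaling, DESeq2 and limma-voom, and among genes without an overlapping gene (edgeR adjusted p = 0.0505 and 0.0519). Without positive library 1 the count was larger, with 5 of the 12 genes rising and 2 falling.

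All 4 simple epithelial keratins, the filaments of luminal epithelium that vimentin is usually set against, passed the test. KRT19, KRT8 and KRT18 fell and KRT7 rose, with a median log2 fold change of -0.32. Over all tested genes 22.4% were called, 10.9% lower and 11.6% higher. KRT19 went from 440 ± 22.3 to 303 ± 16.9 CPM (log2 fold change -0.54, SE 0.08, edgeR adjusted p = 4.38e-05) and fell in every alternative fit. KRT8 went from 274 to 210 CPM and lost its call without negative library 2 (edgeR adjusted p = 0.0803). KRT18 (66.5 to 55.6 CPM) overlaps KRT8, and both it and KRT7 (145 to 174 CPM) lost their calls without either negative library, KRT7 also with total count scaling. VIM and KRT19 were therefore lower in the same line.

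**Figure D5:**
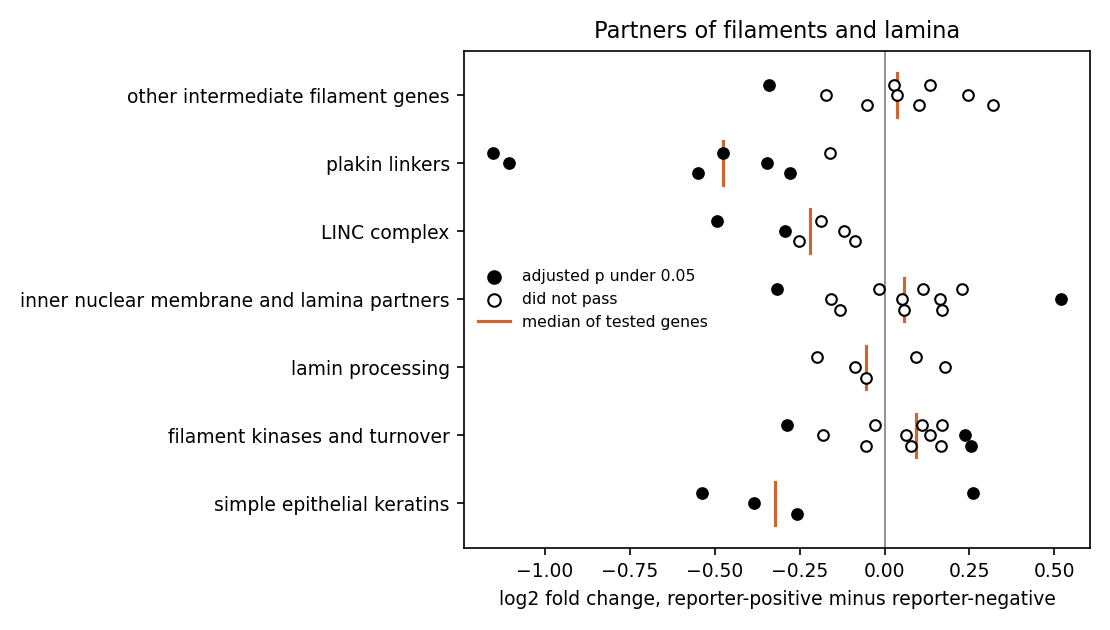
Log2 fold change of the tested genes of 7 lists, positive minus negative; each point is a gene, filled where its adjusted p was under 0.05, and the vertical bar is the list's median. Plakins lie to the left, with 6 of 7 filled, and the filled point farthest to the right is LBR.

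Of 12 protein-coding genes within 1 Mb of VIM on chromosome 10, all tested, 3 fell, 0 rose and 9 did not pass, beside 22.4% called and 10.9% lower over all tested genes. These 12 genes had a median log2 fold change of -0.08. The 3 that fell were RSU1 (30.9 to 22.6 CPM), HACD1 (15.7 to 11.4 CPM) and STAM (48.5 to 35.9 CPM), with log2 fold changes of -0.45, -0.45 and -0.44. They lie 411, 351 and 407 kb from VIM. The nearest gene, TRDMT1, 26.2 kb away, had 11.1 and 9.84 CPM and did not pass (log2 fold change -0.18, edgeR adjusted p = 0.232). CUBN, 98.4 kb away, had a log2 fold change of -0.32 (edgeR adjusted p = 0.0724), and ST8SIA6, 80.8 kb away, was near 1 CPM in both lines.

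LMNA and NES lie 529 kb apart on chromosome 1. Of the 21 protein-coding genes between them, a stretch chosen after the values were seen, 18 were tested. BGLAP (log2 fold change -1.12) and PAQR6 (-0.56) fell, both of which share reads with PMF1-BGLAP, and 16 did not pass, with 10.9% of all tested genes lower. The median over the stretch was -0.03.

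By the smallest root mean square difference in centred log2 CPM over the 4 libraries, among protein-coding genes of at least 100 CPM, the 5 genes most like VIM were NET1 (0.0378), AHNAK2 (0.0407), UACA (0.0489), GSN (0.0648) and SLCO4A1 (0.0708). NET1 is a guanine nucleotide exchange factor for RhoA, and GSN encodes gelsolin, which severs actin filaments. NET1 had 287 ± 0.461 and 134 ± 8.99 CPM and GSN 261 ± 8.42 and 119 ± 5.59 CPM (SD, n = 2). The 5 were chosen by this pattern, so their changes are given as a description.

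The other genes of the series title were read in the same libraries. LINC00645 had 11 and 15 counts in the negative and 336 and 208 in the positive libraries, the opposite direction to VIM. Its log2 fold change was 4.47 (SE 0.27, edgeR adjusted p = 1.06e-10). It overlaps MIR3171HG, whose counts over the 4 libraries were 1249% of its own. How many of its reads come from MIR3171HG was not measured. The MIR452 gene had 0 and 4 counts against 2 and 4. It was not tested, it overlaps GABRE, which had far more counts, and counts over the hairpin gene are no measure of the mature miRNA.

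Markers of the line and of other cells were checked beside the VIM result. VIM, CD44 and EGFR were above 1 CPM in all libraries, and SPARC was near 1 CPM. CD44 rose, from 239 ± 4.10 to 281 ± 24.8 CPM (SD, n = 2, log2 fold change 0.23, edgeR adjusted p = 0.0373), a call lost in 4 of 11 alternatives. The fibroblast marker LUM also rose, from 1.89 ± 0.0915 to 3.19 ± 0.481 CPM (0.75, edgeR adjusted p = 0.00557), and did so in every alternative fit. The other fibroblast markers did not pass. COL1A1 was at 3.81 and 4.14 CPM in the negative and the positive line, COL1A2 at 0.152 and 0.151, and PDGFRA at 0.710 and 0.603. DCN had 11 and 15 counts in the negative and 48 and 5 in the positive libraries. Summed CPM ran from 4.80 to 5.67 in the negative and from 6.74 to 7.04 in the positive libraries for 5 leukocyte markers, and from 6.28 to 7.24 and from 7.48 to 9.55 for 5 fibroblast markers. For 5 neuronal or glial markers the sums ran from 18.3 to 19.8 and from 20.0 to 21.2. The 4 endothelial markers summed to 76.0 to 90.9 and 60.9 to 78.2 CPM, mostly PECAM1. None of these markers was at 0 in every library, and OLIG2 was at 0 in both positive libraries. Of the epithelial markers, CDH1 was at 0.588 and 0.748 CPM and EPCAM at 4.66 and 4.58 CPM in the negative and the positive line, whereas CLDN4 was at 34.1 and 35.2 CPM. Of the hormone receptor genes, ESR1 was at 4.97 and 5.78 CPM and PGR at 0.475 and 0.434 CPM. Neither passed, and ESR1 overlaps SYNE1, which had more counts. The fibroblast, leukocyte and neuronal or glial sums were higher in the line in which VIM was lower, while the endothelial sums overlapped between the lines. The part of these markers in the result was not tested.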

How the data were processed

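RNA of 2 libraries per line was made with 1 ug of total RNA, per the labels' protocols. The authors deposited raw read counts per Ensembl gene ID, and these counts were used as they stand. The submitters' processing notes list HISAT2, Bowtie2, DESeq2 and hg19 with no version or role, while the gene IDs match GENCODE release 29 (GRCh38), the source of positions and lengths used here. How reads were counted is not stated in the sources used here, and the counts show reads assigned to whole gene spans on both strands, so overlapping genes share reads. Of 43714 IDs, 43289 had a current symbol.

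The test was edgeR 4.0.16 (R 4.3.3): genes kept by filterByExpr (count 10, total 15), TMM factors, a quasi-likelihood F test of the line, and p-values adjusted by Benjamini-Hochberg over 30952 genes, with 0.05 as threshold. It was tested on simulated data, in which false calls exceeded the threshold. Fewer genes were changed there than were called in these data, so the false share in these data is not known. Alternative fits used RLE factors, total counts, no filter, 1 CPM in 2 libraries, DESeq2 1.42.0, limma-voom (limma 3.58.1), library number as a block, each library left out in turn, and genes without an overlapping gene. Ratios of members used an exact permutation test. At these depths counting error is small except for genes of a few counts, and with 2 libraries per line spread is estimated jointly over genes.

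The members and gene lists were chosen with earlier results of these data known. Genes were named by a rule: the members, up to 4 passing genes per list with the smallest adjusted p (the 2 with the highest CPM where none passed), the main overlapping gene of a member, protein-coding genes within 1 Mb of VIM, the 5 genes most like VIM, and the genes of the series title. IFFO2 and those between LMNA and NES were named after their values were seen. The libraries within a line were not copies of each other by a chi-square test of their counts.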

Additional observations from a re-analysis of the deposited data

How the results depend on the processing

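VIM (-1.12 to -0.99), VIM-AS1, NES (-1.24 to -1.12) and LMNA (-0.62 to -0.47) kept their direction and call under every alternative that could test them, and 5 members were called in each fit over all genes except that without negative library 1, where SYNM was lost and 4 were called. Among the 9888 genes without an overlapping gene, 2204 were called (1111 higher, 1093 lower). VIM, VIM-AS1, SYNM and LMNB2 have an overlapping gene and were left out there. Of the 3 members tested there 2 fell, NES and LMNA, as in the main fit. LMNB2, which did not pass in any fit, had a log2 fold change of -0.031 with total count scaling and from -0.000139 to 0.11 when each library was left out. VIM without its antisense overlaps ranged from -1.17 to -1.05. Leaving out a library gave 4358 to 9161 genes called, 4358 of them without negative library 1. The cause was not tested. Total count scaling gave 2270 higher and 4032 lower genes, against 3576 and 3366 with TMM, and shifted the median over all genes by -0.08 (log2). DESeq2 called 5348 genes and limma-voom 6719. With the library number as a replicate block 8226 genes and 5 members were called. Same-numbered libraries did not deviate together across genes (r = 0.00788). The labels do not say whether the numbers pair libraries, and a pairing limited to some genes was not tested. Depth limits INA, NEFL and NEFM, which had at most 9 counts in any library. MIR452 had at most 4, and more depth would not make counts over its hairpin gene a measure of the mature miRNA.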
